A study of Mus musculus with 5 samples.

Results

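The genomic regions described here are the peaks of HSC WT 1, a wild-type haematopoietic stem cell library, that also lay under a peak in HSC WT 2 and in HSC KO, the library labelled as knockout in a study of BCLAF1. They were HSC WT 1 peaks on chromosomes 1 to 19 and X, outside a crowded window at the start of the chromosome 9 assembly, that shared at least 1 bp with a peak of each of the other HSC lists. This gave 214 regions of the 362 HSC WT 1 peaks in that space, of 544 HSC WT 1 peaks and 7045 peaks deposited over all 5 lists. These 3 libraries are called WT 1, WT 2 and KO below. The regions were chosen by the deposited peak positions in these 3 lists, so what the lists hold at them is a description and not a test. The LSK lists took no part in the choice.

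All 5 libraries were CUT&RUN with the same anti-BCLAF1 antibody on 50000 sorted mouse cells each. WT 1, WT 2 and KO came from E17.5 fetal liver, with cells pooled from 24 to 26 embryos, and the labels give the genotype only as WT or KO, with neither strain, allele nor deleting driver. The LSK libraries (lineage-negative, Sca-positive, Kit-positive cells, WT) were native in 1 case and treated with 0.1% formaldehyde for 2 min in the other. The protocol calls the LSK cells adult bone marrow pooled from 2 to 3 mice, whereas their tissue label says E17.5 fetal liver, so age and tissue cannot be settled here. Peak lists hold no expression, so neither the cell types nor the loss of BCLAF1 could be checked against markers. KO, native LSK and fixed LSK have 1 library each, so no test across samples was possible, and it is not stated whether WT 1 and WT 2 were separate pools.

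BCLAF1 is a nuclear protein rich in serine and arginine that takes part in transcription and the handling of RNA. In CUT&RUN an antibody tethers a nuclease to chromatin, and the fragments it cuts loose are sequenced, so that a protein's sites stand above a low background. A small set of loci collects reads in such assays whatever the antibody. Many of them are satellite or other repeats with more copies in the genome than in the assembly. A library from cells without the protein can show such loci. Which of the regions here collect reads in that way was not tested.

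Of the transcription starts in the RefSeq promoter table (GRCm38.p6, the coordinates of mm10; 300 bases around each start), 3 had a shared region so near that a peak of at least 1 list entered the printed window. They are shown because they are the only windows of that table so reached, and in none of them did the peak cover the start itself. Each is written 5′ to 3′ on the minus strand, with capitals for the bases under the peak.

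Relt, chr7:100863364-100863663: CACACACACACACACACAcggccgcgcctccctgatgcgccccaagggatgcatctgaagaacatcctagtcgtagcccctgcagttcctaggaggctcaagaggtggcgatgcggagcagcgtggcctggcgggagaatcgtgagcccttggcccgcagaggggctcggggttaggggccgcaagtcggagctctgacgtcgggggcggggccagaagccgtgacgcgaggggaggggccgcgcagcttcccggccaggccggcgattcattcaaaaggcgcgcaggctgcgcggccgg

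Gm13822, chr5:114922212-114922511: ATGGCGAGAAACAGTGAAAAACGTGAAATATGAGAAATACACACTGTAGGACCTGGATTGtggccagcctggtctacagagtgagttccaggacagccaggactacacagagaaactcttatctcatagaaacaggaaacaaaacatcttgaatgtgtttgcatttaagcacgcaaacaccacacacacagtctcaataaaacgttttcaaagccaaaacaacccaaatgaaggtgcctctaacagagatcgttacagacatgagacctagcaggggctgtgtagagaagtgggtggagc

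Gm15564, chr16:35981800-35982099: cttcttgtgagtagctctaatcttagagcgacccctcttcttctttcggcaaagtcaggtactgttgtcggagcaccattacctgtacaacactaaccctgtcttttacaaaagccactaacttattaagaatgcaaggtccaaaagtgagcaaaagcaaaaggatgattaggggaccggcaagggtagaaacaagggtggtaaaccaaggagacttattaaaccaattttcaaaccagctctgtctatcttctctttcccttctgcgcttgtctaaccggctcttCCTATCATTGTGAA

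At Relt, a member of the tumour necrosis factor receptor family, the KO and native LSK peaks covered 18 bases at the upstream end of the window, all of them the dinucleotide CA repeated 9 times. The WT 1 peak (chr7:100863670-100863760) lay just upstream of the window. A run of CA repeated 9 times, read on both strands, was present in 0.307% of the 32851 promoters of the table, and its presence here is a description only. At Gm13822, a long non-coding RNA gene near Oasl1, peaks of 4 lists covered 60 bases at the upstream end. Gm15564, also a long non-coding RNA gene, held its region (chr16:35981681-35981809) just downstream of the start, and only 14 bases of the printed window lay under a peak. The region at Gm15564 was called in all 5 lists, with 20 reads at the summit in WT 1, 8 in WT 2, 54 in KO and 17 in native LSK, against 9 in fixed LSK.

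The read numbers used throughout were recovered from the deposited fold enrichment and p-value of each peak, and depth was measured by each library's genome background, the lowest local background (expected reads at a position) in its list. This background was 0.339 in WT 1, 0.117 in WT 2, 1.15 in KO and 0.327 in native LSK, against 0.0220 in fixed LSK. KO was therefore the deepest library by this measure, 3.38 times WT 1 and 9.80 times WT 2, and its list held 3890 peaks in the same space against 452 in WT 2, 648 in native LSK and 254 in fixed LSK. The longer list makes overlap with KO easier to reach, and 88.4% of all 362 WT 1 peaks overlapped a KO peak, against 59.9% for a WT 2 peak.

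At the shared regions the deposited fold enrichment had a median of 13.4 in WT 1 (lowest 3.49, highest 113), 10.0 in WT 2 (2.76 to 114) and 29.3 in KO (3.86 to 121). Where the LSK lists had a peak, the median enrichment was 20.0 in native LSK (3.51 to 118) and 11.3 in fixed LSK (3.83 to 105). These enrichments carry a pseudocount that lowers them in shallow libraries, so they serve to rank peaks within a list. By that rank the medians of the regions stood above the middle of each list. Their median percentile was 65.6 in WT 1, 75.1 in WT 2 and 95.3 in KO, and it was 82.2 in native LSK and 85.0 in fixed LSK for the regions called there. The lists differ in length, and a set that must be present in the short lists can fill only a small part of the long KO list, so percentiles are not compared between lists.

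Within the KO list, the shared regions made up 9 of the 10 strongest KO peaks, 40 of the strongest 50 and 72 of the strongest 100, although the 207 KO peaks they hit were 5.32% of that list. In KO, 158 of the 214 regions (73.8%) ranked in the top 10% of the list. In native LSK they were 10 of the strongest 10 and 46 of the strongest 50 peaks, and in fixed LSK 5 of 10 and 25 of 50. The peaks they hit were 30.4% of the native LSK list and 16.5% of the fixed LSK list. The rule used the KO peaks, so the counts in KO describe the choice, and no test was made on the counts of any list.

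**Figure D1:**
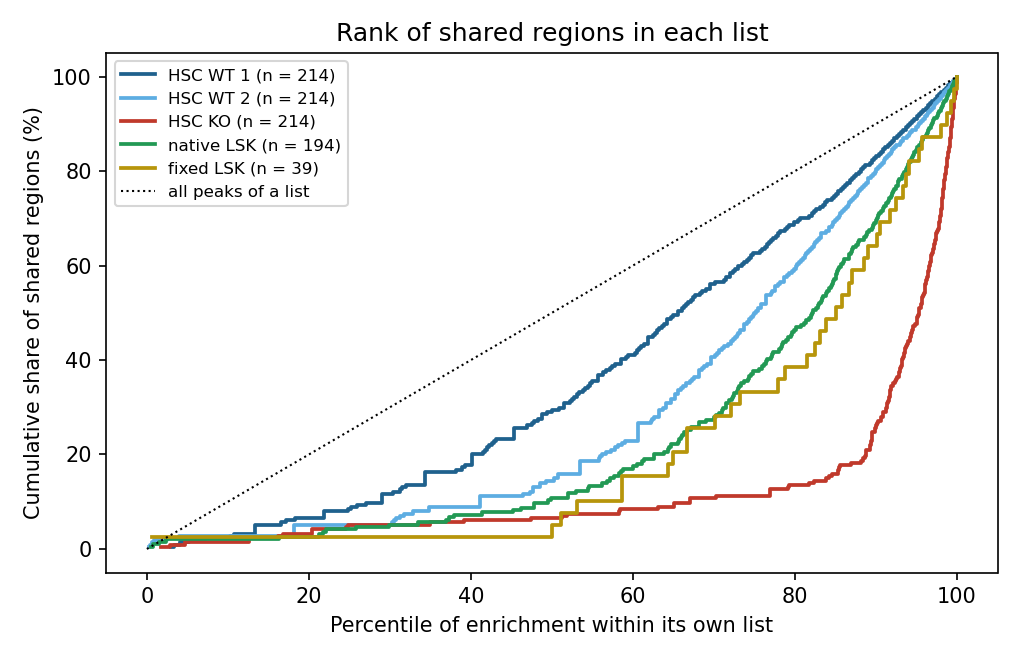
Cumulative share of the shared regions (y axis, percent) against the percentile of their fold enrichment within each list (x axis), 1 line per library, with the dotted line for all peaks of a list. Medians run from 65.6 in WT 1, a list of 362 peaks, to 95.3 in KO, a list of 3890, and the lines are not comparable between lists of such different length.

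The peaks lay close to the same bases in each library. The summit in KO was a median of 8 bp from that in WT 1, and the summits in WT 2, native LSK and fixed LSK were a median of 10, 10 and 9 bp away. Within 50 bp of the WT 1 summit lay the summit of 192 of 214 regions in WT 2, 186 of 214 in KO, 175 of 194 in native LSK and 33 of 39 in fixed LSK. Some distant summits came from wide KO peaks, as at Smo, the hedgehog signal transducer, where 1 KO peak of 569 bp covered 2 regions.

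The regions were narrow. Median widths were 122 bp in WT 1, 104 bp in WT 2, 176.5 bp in KO, 146.5 bp in native LSK and 103 bp in fixed LSK, and the medians of the whole lists were 108, 86, 85, 95 and 92 bp. KO had a wider peak than WT 1 at 191 of the 214 regions, and WT 2 had one at 34. KO was also the deepest library and WT 2 the shallower of the pair, and the part of depth in the widths was not tested.

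**Figure D2:**
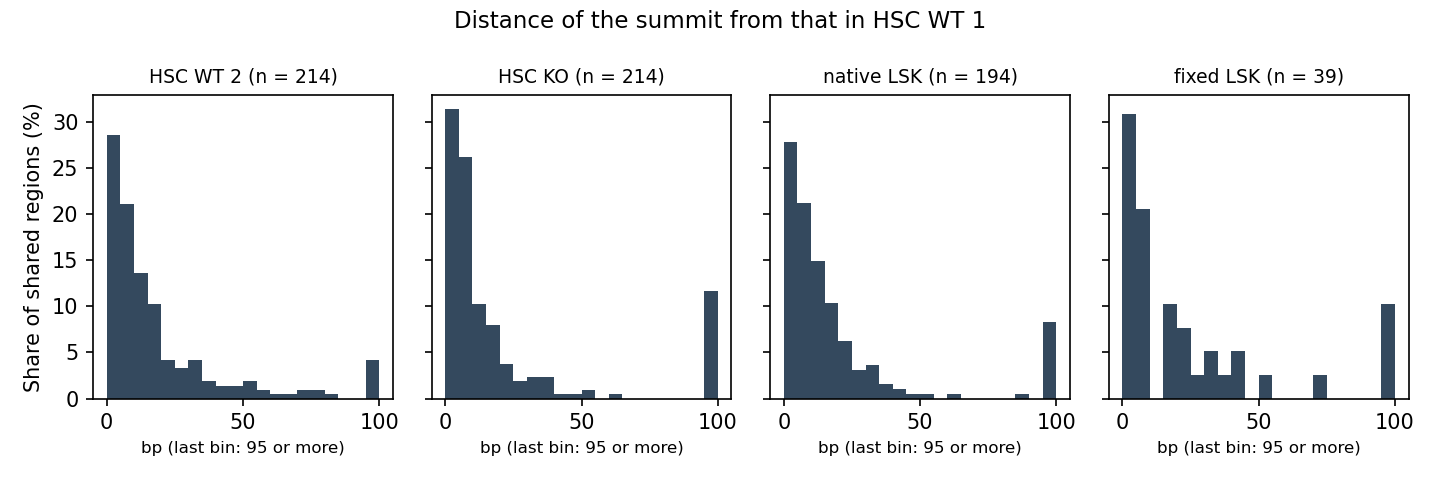
Distance in bp between the summit of each shared region in WT 1 and in the other 4 libraries (x axis, last bin 95 bp or more), as a share of the regions called there (y axis, percent). The bars are highest in the first bins, with medians of 10, 8, 10 and 9 bp from left to right.

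Overlaps were long even at the edge of the rule. The shortest was 49 bp with the WT 2 peak, at chr11:20936652-20936733, 104736 bp from Lgalsl, and the next were 63 bp at chr4:93844410-93844486 and 66 bp at chr17:13590547-13590683. Those 3 regions had 9, 15 and 27 reads in WT 1. Just outside the rule were WT 1 peaks with a KO peak on them and the nearest WT 2 peak 92 bp (chr4:118547635-118547759), 120 bp (chr17:49941234-49941385) and 123 bp (chr9:124256357-124256607) away, with 22, 7 and 34 reads in WT 1.

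The native LSK list, which had no part in the choice, held a peak at 194 of the 214 regions, or 90.7% (exact binomial 95% interval 85.9 to 94.2). Over all WT 1 peaks this share was 73.2%, and among the 148 WT 1 peaks that were not shared regions it was 48.0% (39.7 to 56.3). Those 148 had a median of 11 reads in WT 1 against 23 at the shared regions, and the part of peak strength was not tested. The fixed LSK list held a peak at 39 regions, or 18.2% (13.3 to 24.1), against 12.7% of all WT 1 peaks and 4.73% (1.92 to 9.50) of the 148 others. Intervals cover counting error only, and neighbouring regions are not independent. Of all KO peaks, 13.2% had a native LSK peak and 1.88% a fixed LSK peak.

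Every fixed LSK peak at a shared region came with a native LSK peak. The 214 regions thus fell into 39 called in all 5 lists, 155 called in the HSC lists and native LSK, 0 with fixed LSK alone and 20 with no LSK peak. WT 1 reads at the summit had a median of 52 in the first class (9 to 5411), 22 in the second (6 to 2548) and 16 in the third (7 to 62). The regions without an LSK peak thus had the lowest of these medians. It was near the median of 18 reads over all 362 WT 1 peaks in the same space.

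The 10 regions with the highest mean enrichment over the WT lists show what the top of the lists looks like. The first was at chrX:143482999-143483114, 35252 bp from Pak3, a protein kinase of neurons, with 1530 reads in WT 1, 754 in WT 2, 2180 in KO and 1231 in native LSK, against 23 in fixed LSK. The second was inside Chl1, a neural cell adhesion gene, at chr6:103649064-103649292, with 4038, 2307, 4807, 3505 and 103 reads in the same order. Both were far above the list median in the HSC libraries and native LSK. In fixed LSK, the shallowest library, they had the fewest reads but also stood above its list median of 4 reads.

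The region inside Cdk5rap2, a centrosome gene (chr4:70378121-70378254), had 396, 175, 946, 369 and 4 reads in that order. Inside Mdga2, a gene of synapses, chr12:67059359-67059616 had 192 reads in WT 1, 90 in WT 2, 445 in KO and 98 in native LSK, with no fixed LSK peak. The others of the 10 lay inside 2210408I21Rik, a predicted gene (chr13:77438908-77439055), and 14885 bp from Dpy19l2, 137309 bp from Rab10, 195859 bp from Chl1, 3191 bp from Tcstv3 and 29263 bp from Rpusd4. None of these 10 lay within 1 kb of a boundary of a protein-coding gene.

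Divided by each library's genome background, the reads at the summit had a median of 67.9 in WT 1, 103 in WT 2, 91.6 in KO and 124 in native LSK. In fixed LSK it was 592, over its 39 called regions only. On those 39 the medians were 153 in WT 1, 257 in WT 2, 130 in KO and 278 in native LSK. The weakest fixed LSK peaks, with 3 reads, already stood at 137. WT 2 itself stood at a median of 1.37 times WT 1 (0.650 to 5.79) on this scale, among regions that needed a peak in both. The lowest value of any peak in the list was 17.7 in WT 1, 34.2 in WT 2 and 7.85 in KO. The rule thus admitted lower values in KO than in either WT library. The part of this in the ratios and counts that follow was not tested. KO over the mean of the WT libraries had a median of 0.862, with a lowest value of 0.175 and a highest of 3.93. It lay below both WT values at 99 regions (46.3%), between them at 60 and above both at 55 (25.7%). With exact Poisson intervals of the reads, divided by the same backgrounds and covering counting error only, the KO interval lay below those of both WT libraries at 35 regions (16.4%) and above both at 5 (2.34%), and it overlapped at least 1 of them or lay between them at 174. This comparison exists only where all 3 HSC lists have a peak, so these percentages are also those of its background. On the other scale, reads over the local background of each peak, the median was 0.957, with 81 regions below, 72 between and 61 above.

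**Figure D3:**
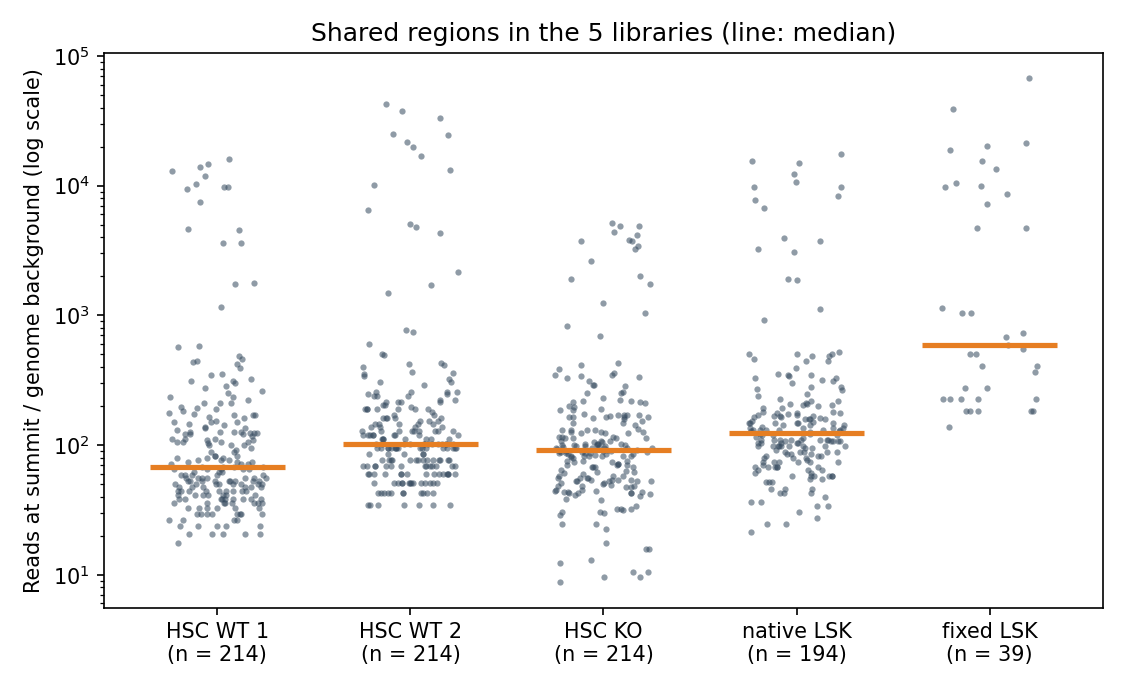
Reads at the summit divided by the genome background of the library (y axis, log scale) for each shared region (points) in the 5 libraries (x axis, n is the number of regions with a peak), with the median as a line. The other 4 libraries have medians between 67.9 and 124, and fixed LSK, with 39 regions, has 592. On those 39 regions alone the other 4 libraries have medians between 130 and 278.

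Across the 214 regions, log2 reads over genome background in WT 1 and WT 2 had a Pearson r of 0.964 and a Spearman rho of 0.862. For WT 1 and KO these were 0.880 and 0.691, and for KO and native LSK 0.942 and 0.818 over 194 regions. On the 39 regions called in all 5 lists, they were 0.986 and 0.934 for WT 1 and WT 2, 0.988 and 0.964 for KO and native LSK, and 0.544 and 0.316 for native and fixed LSK. The points of each correlation share their libraries, and a few loci at the top weigh on r, so they are given as descriptions. On those 39 regions rho was 0.837 or higher for each pair among the HSC libraries and native LSK, and 0.234 to 0.539 for each pair with fixed LSK, where many regions had few reads (median 13).

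**Figure D4:**
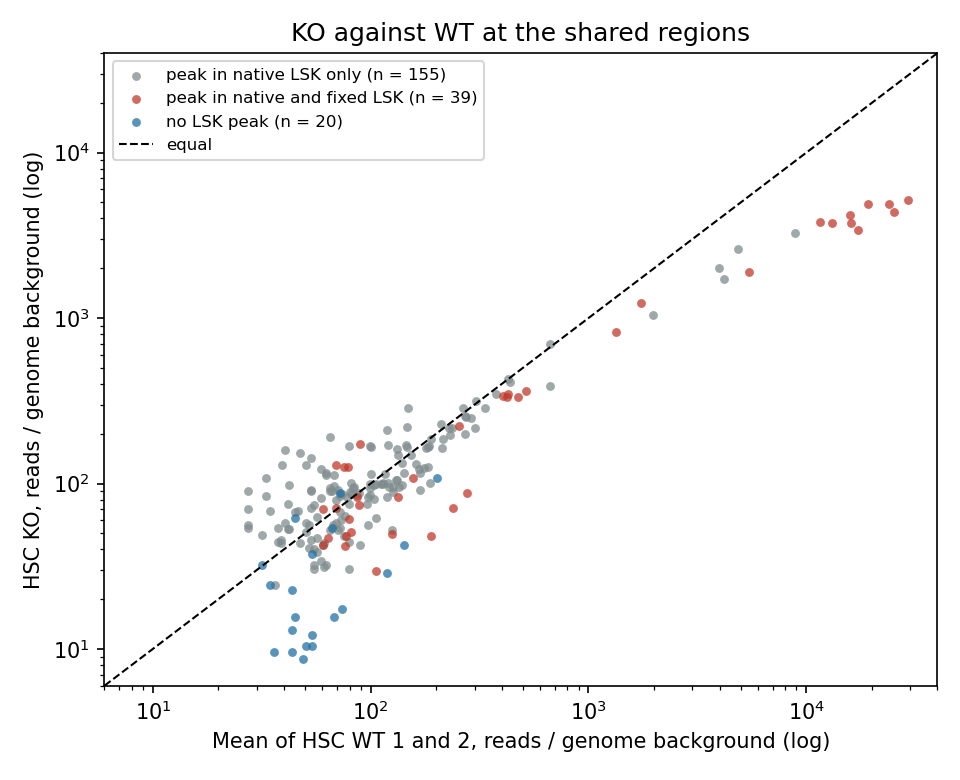
KO (y axis) against the mean of WT 1 and 2 (x axis), both as reads at the summit over the genome background on log scales, for the 214 shared regions coloured by their LSK calls, with the dashed line for equal values. Regions without an LSK peak (blue) mostly lie under the line, with a median ratio of 0.301, and the regions with the most reads bend away from it at the top right.

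At the regions with the most reads, raw reads in KO were closer to those in WT 1 than the genome backgrounds of these libraries were. The strongest was at chr2:98666248-98667328 in a satellite locus, 1034576 bp from Lrrc4c, the nearest protein-coding gene. It had 5411 reads in WT 1, 4965 in WT 2, 5955 in KO and 5706 in native LSK, against 1480 in fixed LSK. Over the 14 regions with over 1000 reads in WT 1, KO had a median of 1.27 times the reads of WT 1 (1.10 to 1.91), where the backgrounds differed 3.38-fold. WT 2 had a median of 0.593 times the WT 1 reads there (0.377 to 0.997, backgrounds 0.345), and native LSK 0.864 times (0.768 to 1.15, backgrounds 0.966). Fixed LSK, with a peak at 10 of the 14, had 0.0578 times (0.0150 to 0.274), near its background ratio of 0.0649. Their 14 peaks came from 6 loci, and all lay in the high-signal windows described below.

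With fewer WT 1 reads the ratio of KO to WT 1 was higher. KO had a median of 2.79 times the WT 1 reads at the 17 regions with 101 to 1000 reads and 3.23 times at the 86 with 21 to 100. At the 97 regions with 20 reads or fewer it had 5.53 times the reads (0.706 to 18.2), above the background ratio of 3.38. The classes are cut on WT 1 reads, the denominator of the ratio, so low classes are also selected for low denominators. Divided by genome background, KO over WT had medians of 0.276, 0.814, 0.846 and 1.12 in these 4 classes. The KO to WT ratio thus moved with the number of reads, and the part of read number in it was not tested.

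The 5 regions with the highest KO over WT, by reads over local background, were weak in the WT lists. The first was at chr12:111555112-111555202, 8359 bp from Eif5, a translation initiation factor gene, with 10 reads in WT 1, 6 in WT 2, 182 in KO and 39 in native LSK. The second, chr14:84947593-84947674, lay 410028 bp from Pcdh17, a protocadherin gene, and had 7, 4, 103 and 7 reads. Those near Aebp2 and Cyp2c55 and inside Dennd4c had 7 to 14 reads in WT 1 and 64 to 112 in KO. None of these 5 had a fixed LSK peak.

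The 5 regions with the lowest ratio on that scale all lacked an LSK peak, and their KO reads did not exceed their WT 1 reads despite the deeper background. Inside Pank1, a pantothenate kinase gene (chr19:34845508-34845589), there were 16 reads in WT 1, 7 in WT 2 and 12 in KO. At chr1:157607218-157607307, 38793 bp from Sec16b, a gene of endoplasmic reticulum exit sites, there were 13, 7 and 10. The others lay 70813 bp from Poc5, 23565 bp from Rxfp1 and 410638 bp from Kcna4, with 12 to 17 reads in WT 1 and 11 to 14 in KO.

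The 20 regions without an LSK peak as a class were lower in KO than the rest. Reads over genome background had medians of 47.2 in WT 1, 55.6 in WT 2 and 20.1 in KO, and KO over WT had a median of 0.301 (0.178 to 1.38), against 0.901 over the 194 regions with an LSK peak. KO lay below both WT libraries at 17 of the 20 regions and at 82 of the 194, and with Poisson intervals at 10 of the 20. The read numbers behind this are small, with a median of 23 reads in KO (10 to 124). None of the 20 lay in a high-signal window or within 10 kb of another shared region, and 7 lay inside a protein-coding gene.

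Some of these 20 had many more reads in WT 1 than the 6 of the weakest native LSK peak, at nearly equal genome backgrounds of 0.339 and 0.327. At chr4:3089730-3089807, 82276 bp from Vmn1r2, a vomeronasal receptor gene, there were 62 reads in WT 1, 26 in WT 2 and 124 in KO. At chr12:97061453-97061781, 1140506 bp from Galc, there were 49, 11 and 33, and inside Lrfn5, a synaptic adhesion gene (chr12:61823773-61823867), 47, 17 and 49. Inside Pcca, a subunit of the mitochondrial propionyl-CoA carboxylase (chr14:122568971-122569078), there were 26, 8 and 100, and at chr2:69355552-69355659, 12936 bp from Abcb11, the bile salt export pump gene, 23, 8 and 18. Local background decides a call as well, and reads in native LSK where no peak was called were not analysed here. The HSC lists and the LSK lists differ in cell type and perhaps in age and tissue, and these cannot be told apart.

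Among the 39 regions called in all 5 lists, those highest in KO were again the Pak3, Dpy19l2, Chl1, Cdk5rap2 and Tcstv3 regions. The next lay 194855 bp from Cr2, 90776 bp from B230307C23Rik, 253044 bp from Gm40514, 746 bp from Wls, whose product carries Wnt proteins to the cell surface, and 137309 bp from Rab10. At the Wls region (chr3:159939412-159939679) there were 148 reads in WT 1, 70 in WT 2, 413 in KO and 165 in native LSK, against 5 in fixed LSK. The 5 reads in fixed LSK at the Wls region were close to the 3 reads of the weakest peak in that list. At the named regions fixed LSK reads ran from 4 inside Cdk5rap2 to 860 near Rab10.

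A set of 5 of the 39 stood apart in fixed LSK. They were picked after their values were seen, as the regions with over 20 times the mean WT level in fixed LSK, on reads over genome background, and are described without a test. The region inside Dpp9, a dipeptidyl peptidase gene (chr17:56200002-56200090), had 66 reads in WT 1, 42 in WT 2, 100 in KO and 66 in native LSK, against 465 in fixed LSK. The region at chr6:132463716-132463800, 99582 bp from Gm8882, had 41, 30, 55, 35 and 343. At chr2:60402759-60402838, 14705 bp from Pla2r1, a phospholipase receptor gene, there were 52, 38, 81, 52 and 297 reads. At each of them fixed LSK had the most raw reads of the 5 libraries although it was the shallowest.

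The other 2 were at chr1:12644769-12644849, 47348 bp from Sulf1, a heparan sulphate sulphatase gene, with 36, 17, 57, 34 and 189 reads, and at chr17:4626171-4626558, inside the long non-coding RNA gene Gm34259 and 367739 bp from Arid1b, with 25, 16, 34, 22 and 218. On reads over genome background these 5 ran from 8601 to 21160 in fixed LSK and from 67.2 to 202 in native LSK. KO over WT was 0.254 to 0.395 at them, below both WT libraries at 5 of 5. KO also lay below both at 26 of the other 34 regions called in all 5 lists, and at 99 of all 214. At those 34 KO over WT had a median of 0.698 (0.175 to 1.95). None of the 5 picked regions lay in a high-signal window, and WT 1 peaks at 4 of these 5 were 80 to 89 bp wide. At the other 34 regions called in all 5 lists, fixed LSK over WT had a median of 1.36 (0.137 to 14.3), and fixed LSK lay above native LSK at 18.

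**Figure D5:**
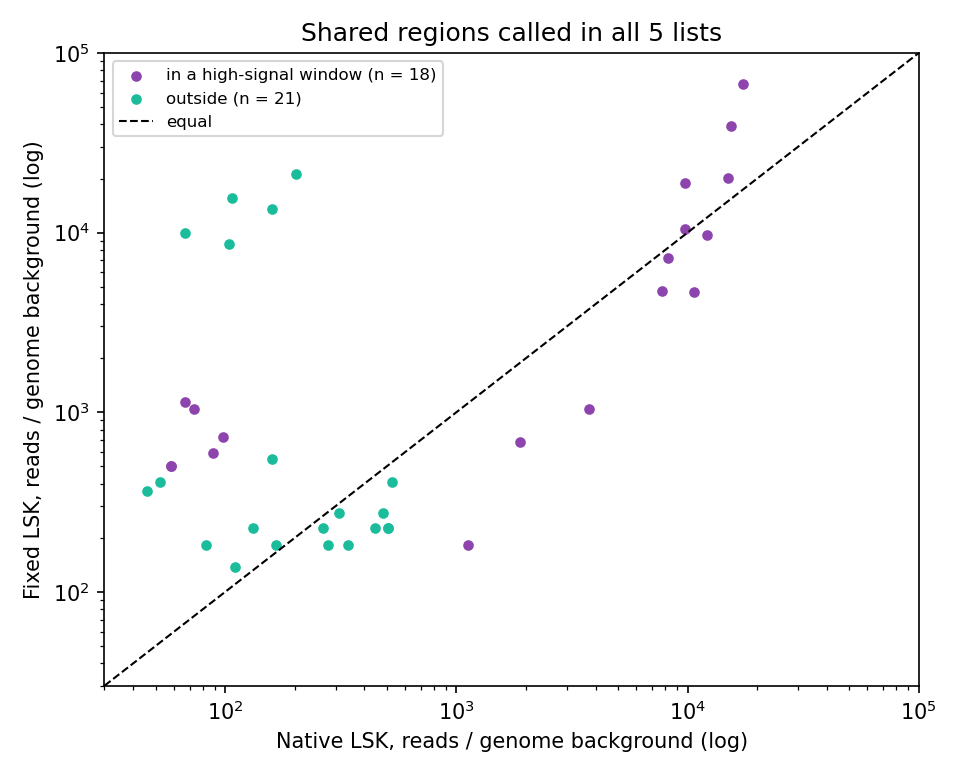
Fixed LSK (y axis) against native LSK (x axis), as reads at the summit over the genome background on log scales, for the 39 regions called in all 5 lists, coloured by whether they lie in a high-signal window, with the dashed line for equal values. The 5 points at the upper left, outside the windows, reach 8601 to 21160 in fixed LSK at 67.2 to 202 in native LSK.

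Windows known for high signal in mouse sequencing assays were listed from general knowledge, with approximate edges, since no exclusion list was used here. A first set of 8 windows held 13 of the regions in 5 windows, 6.07% against 6.08% of all WT 1 peaks. A set of 52, of which 44 were added after the files had been seen, held 36 regions in 25 windows, 16.8% against 15.7% of all WT 1 peaks and 2.93% of KO peaks. The share was thus near that of the WT 1 list as a whole. By WT 1 reads, 10 of the 10 strongest regions and 17 of the strongest 20 were in these windows, and 19 of the strongest 50. Ranked by mean WT enrichment, the counts were 7 of 10, 7 of 20 and 8 of 50. The remaining 178 regions lay outside every window listed.

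Regions in the windows were called more often in the LSK lists. All 36 (exact interval 90.3% to 100%) had a native LSK peak and 18 of 36 (50.0%, exact interval 32.9 to 67.1) a fixed LSK peak. Outside the windows 158 of 178 (88.8%, exact interval 83.2 to 93.0) had a native LSK peak and 21 of 178 (11.8%, 7.45 to 17.47) a fixed LSK peak. The 2 intervals for native LSK overlap. Median reads in WT 1 were 118 inside the windows and 19.5 outside, and the part of read number was not tested. KO over WT, on reads over genome background, had medians of 0.625 inside and 0.901 outside.

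Most regions stood alone on the chromosome. Within 10 kb of another shared region lay 38 of the 214 (17.8%), in 12 groups, and 176 were alone. Without the need for a WT 2 peak the share was 26.9%. By the same distance among all peaks of a list, the share was 24% in WT 1, 12.2% in WT 2 and 12.5% in KO. The regions numbered from 4 on chromosome 7 to 17 on chromosome 14, and 10 (4.67%) lay within 500 kb of the first sequenced base of their chromosome at 3 Mb, against 5.80% of all WT 1 peaks.

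The largest group was at chr14:19415717-19419410, 7 regions in 3694 bp, where reads ran from 1224 to 4980 in WT 1, 508 to 3902 in WT 2, 1988 to 5637 in KO and 1011 to 4893 in native LSK. Fixed LSK had a peak at 4 of the 7. At chr13:74528694-74530617, inside the pseudogene Gm20590, 5 regions had 75 to 156 reads in WT 1, 28 to 48 in WT 2, 225 to 474 in KO and 58 to 164 in native LSK, with no fixed LSK peak. At chr17:13550698-13553126, inside the long non-coding RNA gene 2700054A10Rik, 4 regions had 43 to 97, 22 to 30, 141 to 230 and 55 to 81 reads in that order. Groups of 3 lay in the satellite locus at chr2:98662238-98667328, at chr15:75085527-75087025, 21136 bp from Ly6c2, and at chr4:118547854-118548722, inside the non-coding gene Gm40237. At the chromosome 14 group the local background in WT 1 was 351 reads against 0.339 for the genome, and fold enrichments there were 3.49 to 14.2. At the Gm20590 group it was 5.09 to 5.10 reads, and fold enrichments were 12.5 to 25.8.

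Protein-coding genes held 60 of the 214 regions, 28.0% (exact interval 22.1 to 34.6), and the share was 28.2% for all WT 1 peaks, 34.1% for KO peaks and 39.4% for fixed LSK peaks. Protein-coding genes cover 39.6% of the stretch from the first to the last protein-coding gene of each chromosome in the RefSeq table. The 28.0% also counts any region beyond that stretch. Another 38 regions lay only in other genes, 30 of them in long non-coding RNA genes and 7 in pseudogenes. The table gives no exons, so exon or intron is not stated. Far from genes, 66 regions (30.8%) lay more than 100 kb from any protein-coding gene, against 31.5% of all WT 1 peaks, and 9 lay more than 500 kb away. By position relative to genes the regions were close to the WT 1 list they came from.

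The 60 regions fell in 59 genes, 4 of which held 2 regions, and some regions lay in a pair of overlapping genes. Besides Chl1, 2210408I21Rik, Cdk5rap2, Mdga2, Dpp9 and Lrfn5, the strongest were in Cldn34d, Ank1, Litaf and Dop1b. In Ank1, the ankyrin of the red cell membrane (chr8:23095572-23095660), there were 60 reads in WT 1, 22 in WT 2, 145 in KO and 44 in native LSK. In Litaf, a lysosomal membrane gene (chr16:10975087-10975171), there were 40, 24, 150 and 57, and in Cldn34d, a claudin-family gene (chrX:76598863-76599125), 71, 29, 249 and 74. In each of the 3, KO over WT on reads over genome background stayed between 0.693 and 0.949.

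Of the regions, 11 (5.14%, 2.59 to 9.01) lay within 1 kb of either boundary of a protein-coding gene, against 4.14% of all WT 1 peaks and 2.96% of KO peaks. By the starts of the promoter table, which covers 203 of the regions' positions, 10 (4.93%) lay within 1 kb, against 4% of WT 1 peaks. The boundary regions belonged to Wls, Asmt, Lars2, Psmc3, Spocd1, Gm21814, Oasl1, Adgb, Relt and, with 2 regions, the overlapping D5Ertd579e and Gm32584. At Psmc3, a proteasome ATPase gene, the region (chr2:91053541-91053657) had 21 reads in WT 1, 8 in WT 2, 218 in KO and 32 in native LSK. At Lars2, the mitochondrial leucyl-tRNA synthetase gene (chr9:123461907-123462178), there were 25, 12, 85 and 32 reads and 16 in fixed LSK. At Relt there were 7, 4, 62 and 19, the lowest WT values of the 11.

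Of the gene lists for HSC identity, the interferon response, NF-kB and inflammation, p53 and apoptosis, and splicing factors, 156 of 158 genes were found in the table. A shared region lay inside or within 10 kb of 1 of them, against 89 of 21631 protein-coding genes (0.411%). This was Oasl1, an interferon-induced gene of the oligoadenylate synthetase family, 591 bp from the region at chr5:114922458-114922552, whose bases in the Gm13822 window are printed above. It had 13 reads in WT 1, 6 in WT 2, 77 in KO and 28 in native LSK, and no fixed LSK peak. The other 4 lists had 0 genes with a region: 37 HSC identity genes, 27 of NF-kB and inflammation, 26 of p53 and apoptosis and 30 splicing factors.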

How the data were processed

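The members of this set, the gene lists and the windows were chosen with earlier results of these data known. The deposited files are 1 narrowPeak list per library. Build mm10 comes from the submitters' processing notes, while alignment, peak calling, any control library and the treatment of duplicates were not given in the sources used here. Per peak, the authors deposited a fold enrichment, which is a ratio with a pseudocount of 1. They also deposited −log10 p-values and −log10 q-values, and a deposited score, the −log10 q-value multiplied by 10. The score was not used.

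Whole read numbers at each summit were solved from the deposited fold enrichment and Poisson −log10 p-value (relative tolerance 1e-05), for every peak of 4 lists and 4710 of 4712 KO peaks. Library depth is not given, so the lowest local background of a list stood for it. Reads have no molecular identifiers, and intervals cover counting error only. On simulated data 1000 of 1000 read numbers and 200 of 200 planted overlaps were recovered. An overlap needed 1 bp or more. Intervals of shares are exact (Clopper-Pearson, 95%). Genes came from the RefSeq table of GRCm38.p6, with 21631 protein-coding genes on these chromosomes. No genome sequence was used.

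Regions were named by rule: the 10 highest by mean WT enrichment, the 10 and 5 called in all 5 lists and highest in KO and fixed LSK, those at most 1 kb from the boundary of a gene, the 5 highest lacking an LSK peak, groups of 3 or more within 10 kb, the 3 shortest overlaps and the 3 nearest misses, the 10 strongest inside genes, gene list members within 10 kb, and the 5 highest and 5 lowest in KO over WT. One group is not reported here. Alternatives were another overlap rule, stricter peaks, lists of equal size, each WT library left out, other distances, ranks and gene sets. Work was done with Python 3.11.15, pandas 2.3.3, numpy 2.4.6 and scipy 1.17.1.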

Additional observations from a re-analysis of the deposited data

How the results depend on the processing

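The number of shared regions was 214 and ranged from 150 with HSC lists of equal size (362 peaks) to 320 without WT 2. Under the alternatives, 85 of 121 shares and medians stayed within the main value's interval and 36 moved. Leaving out 1 WT library gave 82.8% to 85.8% with a native LSK peak and 14.4% to 15.3% with a fixed LSK peak. Within 10 kb of another region lay 19.3% to 26.9%. Without WT 2 the median width in WT 1 was 113.5 bp and the summit distance 9.5 bp. Without WT 1 the regions were WT 2 peaks, and the 96 bp median width is that of WT 2, which was 104 bp in the main set. With either WT library left out, the median percentiles were 55.7 in WT 1, 69.7 in WT 2, 93.3 to 94.2 in KO and 75.5 to 78.5 in native LSK. Reads over local background were 32.5 in WT 1, 40.0 to 42.7 in KO and 46.1 to 51.6 in native LSK. With equal sizes 96.7% had a native LSK peak. Without the 52 windows, an alternative chosen after seeing the data, 11.8% had a fixed LSK peak, and with the 52 windows in place of 8 the share in windows was 16.8%. With 1 region per group, 0% lay within 10 kb of another, by construction, and 2.66% in the 8 windows. Counting all genes, 45.8% lay inside one and 10.3% within 1 kb of a boundary, and 9.81% lay within 5 kb of a protein-coding boundary. A −log10 q of at least 5 gave 57.1 reads over local background in WT 2. Ranked among all deposited peaks, the median percentile was 74.4 in WT 1, 78.8 in WT 2 and 85.6 in native LSK, and ranked by −log10 q it was 96.7 in KO. With the deposited pseudocount the median enrichments were 13.4, 10.0, 29.3, 20.0 and 11.3 for WT 1, WT 2, KO, native LSK and fixed LSK. With the genome background, added after seeing the data, they were 67.9, 103, 91.6, 124 and 592. The causes of these shifts were not tested. No paired analysis was possible because KO, native LSK and fixed LSK have 1 library each. Depth limits what is shown: the weakest peaks had 3 reads in fixed LSK, 4 in WT 2, 6 in WT 1 and native LSK and 9 in KO, so a region without a peak may hold reads below that.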
